A study of Mus musculus with 9 samples.

Results

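The 6 knockdown samples of this series, 3 in which Gata4 was targeted and 3 in which Tbx20 was targeted, were taken as 1 group and set against the 3 control samples, so that all 9 of the 9 samples were used. The comparison asked for a response shared by both knockdowns, which could belong to cells that receive cutting guides whatever the target. The RNA came from primary cardiac fibroblasts of 8 to 10 week old mice on a C57BL/6 background. All groups, controls included, carried the RosaCas9-EGFP allele (Cas9GFP in the labels), which supplies every cell with Cas9 and with green fluorescent protein. Every culture was sorted as CD45-CD31-CD90+ after 3 days, replated, and transfected 6 days later at 80 to 90% confluency with Lipofectamine MessengerMAX. Control cells received scrambled guide RNAs, Gata4 KD cells received 2 guides to Gata4 and Tbx20 KD cells received 2 guides to Tbx20, and the replicates of a group are named a, b and c. The samples are bulk RNA of transfected cultures, not of edited clones, so cells that were not edited contribute to every knockdown sample. The paper describes 3 biological replicates per condition, while the labels do not say whether they came from separate animals or cultures. The p-values therefore measure only the spread between these samples.

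Gata4 and Tbx20 encode DNA-binding transcription factors, a zinc finger protein and a T-box protein, that are needed to form the heart in the embryo and stay expressed in adult cardiac fibroblasts. Cas9 makes a double-strand break where a guide pairs with the genome next to a short motif called the PAM, and error-prone repair of the break can disrupt the gene. Double-strand breaks are known to stabilise p53, which then activates genes of cell cycle arrest and death. RNA delivered into cells can be sensed by receptors that switch on interferon-stimulated genes. Scrambled guides control for delivery of RNA, but they leave the genome uncut where they match nothing.

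The guides set the contrast, since the pooled knockdown group received guides that pair with a mouse gene and the control group did not. Protospacers are shown 5′ to 3′ in lower case, and capitals mark the PAM as read from the GENCODE M21 transcript sequence.
Tbx20_sgRNA2: caaattccatgaactgggcaCGG
Tbx20_sgRNA3: gagctgctcgccagtaaaggGGG
Gata4_sgRNA1: cagagagtgtgtcaattgtgGGG
Gata4_sgRNA3: gcaggactgggctgtcgaagGGG
NTC_sgRNA1: gcgaggtattcggctccgcg
NTC_sgRNA2: gctttcacggaggttcgacg
In the mouse build GRCm38, Tbx20_sgRNA2 matched chromosome 9 at 24770708 to 24770727, minus strand, in coding sequence of exon 2 of 8 of the principal Tbx20 transcript. Tbx20_sgRNA3 matched chromosome 9 at 24765732 to 24765751, plus strand, in coding exon 4 of the same transcript. Gata4_sgRNA3 matched chromosome 14 at 63240581 to 63240600, plus strand, in coding exon 2 of 7 of Gata4, and Gata4_sgRNA1 matched it at 63204711 to 63204730, minus strand, in coding exon 3. Each of the 4 targeting protospacers matched transcripts of 1 gene exactly, and the 2 scrambled protospacers matched transcripts of 0 genes. Introns and intergenic sequence were not searched.

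Total counts ranged from 31214828 to 41950397 per sample with a median of 36270725, and 14782 of 38924 genes were tested. Fibroblast transcripts were high in every sample, with Col1a1, a chain of type I collagen, at 2672 to 4330 CPM (counts scaled to a common library size) and Thy1, which encodes CD90, at 74.9 to 111 CPM. Of the genes encoding the antigens sorted against, Ptprc (CD45) lay between 1.62 and 3.13 CPM and Pecam1 (CD31) between 3.08 and 9.22 CPM. Control b stood apart from the other controls. The chi-square statistic of counts per degree of freedom was 42.0 between controls a and b and 54.6 between b and c, but 15.7 between a and c. Such values were not particular to control b. The Gata4 KD pairs were at 48.5 (a and b), 60.4 (a and c) and 38.9 (b and c), and the Tbx20 KD pairs at 5.90 to 19.9. No pair of samples in a group was as close as sampling noise alone would give (lowest value 5.90). The main counts over all genes and the list medians below are given with and without control b. So are the log2 fold changes of described genes found to overlap only through it. Genes picked in that way mostly moved away from 0 without control b. Other described genes, Tbx20, Cd38, Disp1 and Kif21a among them, moved toward 0.

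The targets were read first. Gata4 was at 166, 155 and 167 CPM in the controls, at 54.0, 46.7 and 65.5 CPM in Gata4 KD and at 178, 192 and 198 CPM in Tbx20 KD. The knockdown groups thus lay on opposite sides of control for Gata4, and the pooled log2 fold change (knockdown over control) of -0.41 ± 0.45 (SE) had an unadjusted p of 0.387. Tbx20 was at 1010, 1276 and 720 CPM in the controls, at 674, 513 and 909 CPM in Gata4 KD and at 320, 426 and 428 CPM in Tbx20 KD. All 3 Tbx20 KD samples lay below all controls, while Gata4 KD c lay above control c. Tbx20 was therefore lower in both groups by their means, at -0.52 in Gata4 KD and -1.36 in Tbx20 KD on the log2 scale, and the pooled value was -0.88 ± 0.29 (SE, unadjusted p = 0.0106, adjusted p = 0.996). Without control b the pooled values were -0.67 for Tbx20 and -0.44 for Gata4.

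**Figure D1:**
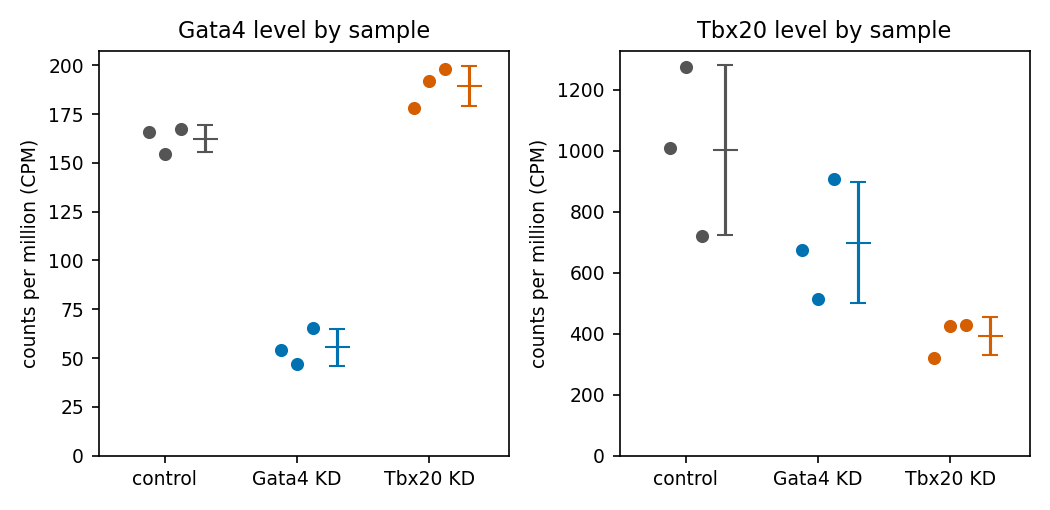
Levels of Gata4 (left) and Tbx20 (right) in CPM, on axes that start at 0. Points are the 3 samples of each group and bars beside them are the mean ± SD; Gata4 is low only in Gata4 KD at 46.7 to 65.5 CPM, whereas Tbx20 is lowest in Tbx20 KD and the Gata4 KD samples at 513 to 909 CPM overlap the controls.

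No gene passed the pooled test. With edgeR's quasi-likelihood F test and Benjamini-Hochberg adjustment over all genes, 0 of 14782 genes (0%) had an adjusted p under 0.05, and the smallest adjusted p was 0.996. At an unadjusted p under 0.05 there were 589 genes (3.98%), of which 219 were higher and 370 lower in the knockdown samples. That share lies below the 0.05 that a test with no true changes would pass on average. The stricter question, whether each knockdown alone differed from control in the same direction, gave 0 genes (0%) as well, with the larger of both p-values taken per gene, and 120 genes had both unadjusted p-values under 0.05. Among other tools the pooled count was 2 with DESeq2, 1 with edgeR's exact test and 0 with limma-voom, with 569, 505 and 568 genes at an unadjusted p under 0.05. Without control b the pooled test called 11 genes, 5 higher and 6 lower, and 2709 genes had an unadjusted p under 0.05. That last number was 369 without control a and 388 without control c. Without control b the count for both knockdowns stayed at 0, while genes with both unadjusted p-values under 0.05 went to 1492.

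The precision of the pooled comparison bounds what it could have missed. The 95% interval of the log2 fold change had a median half-width of 0.24. It lay wholly between -1 and 1 for 13260 genes (89.7%) and wholly between -0.5 and 0.5 for 10275 genes (69.5%). For those genes a shared change of the stated size was outside the interval, and for the remainder it was not. By contrast, the difference between the knockdowns themselves passed an adjusted p of 0.05 for 191 genes (1.29%), in a fit of the 3 groups in which 148 genes were called between Gata4 KD and control and 1 between Tbx20 KD and control. Both knockdown contrasts share the same controls, so a control sample that stands apart moves both in the same direction.

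**Figure D2:**
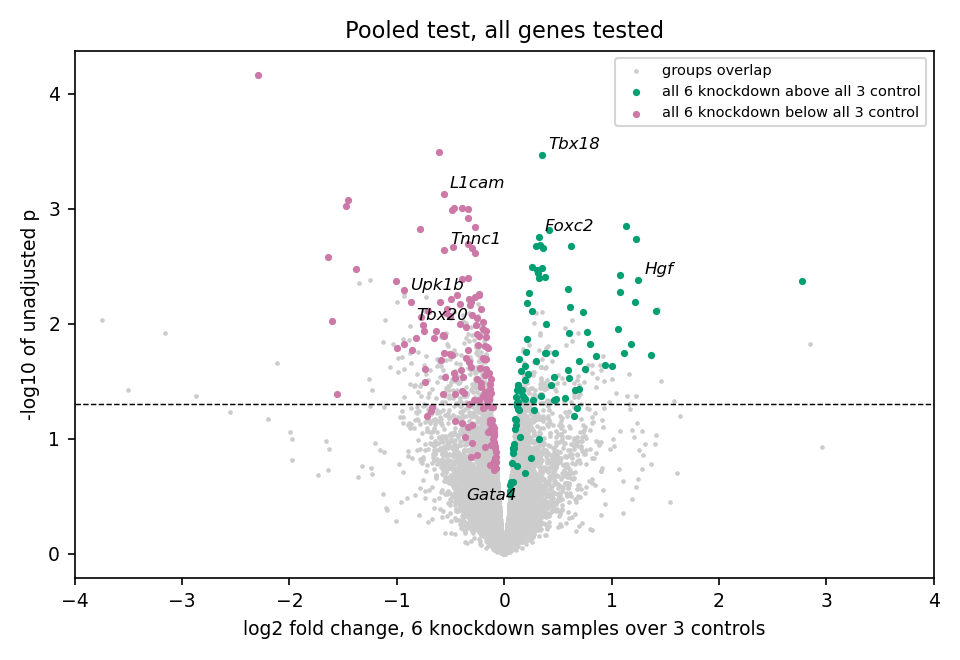
Pooled test of 6 knockdown samples against 3 controls for all 14782 genes, with the log2 fold change on the x axis and -log10 of the unadjusted p on the y axis; 6 genes lie beyond the x axis limits and the dashed line marks an unadjusted p of 0.05. Coloured genes have all 6 knockdown samples above (green) or below (purple) all 3 controls; most of them lie within 1 log2 unit of 0, and Gata4 itself sits low because its knockdown groups fall on opposite sides.

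By their means, both knockdown groups lay on the same side of control for 9027 genes, 4023 of them above (27.2%) and 5004 below (33.9%). With DESeq2's size factors in place of TMM factors these were 4552 above and 4442 below, so which number is larger depends on the scaling. Without control b the genes on the same side numbered 11009, with 4876 above and 6133 below. Both groups were set against the same 3 controls, so equal sides are common without any shared response. All 6 knockdown samples lay above all 3 controls for 103 genes (0.697%) and below them for 158 genes (1.07%). With library size alone this split turned to 123 above and 116 below. Of these 261 genes, 76 higher and 110 lower genes also had an unadjusted p under 0.05. Some genes separate in this way with no effect, and the number to be had by chance was not worked out. Without control b the 261 became 3198, without control a 622 and without control c 646, where any control left out leaves fewer samples that must not overlap and control b gave by far the most.

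The genes with the smallest p among those higher in all 6 knockdown samples included both developmental transcription factors and regulators of signalling. Tbx18, a T-box repressor that marks the epicardium and the cells derived from it, was at 115, 125 and 109 CPM in the controls. It was at 142, 151 and 139 CPM in Gata4 KD and at 162, 152 and 143 CPM in Tbx20 KD. Every knockdown sample lay above every control, by 0.35 ± 0.07 (SE) on the log2 scale (unadjusted p = 0.000344, adjusted p = 0.996). DESeq2 was the only one of the tools tried that called Tbx18, at an adjusted p of 0.0211. Tbx18 occupies positions 87702800 to 87731260 of chromosome 9, minus strand (GRCm38), and its difference between the knockdowns had an adjusted p of 0.753.

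Foxc2, a forkhead factor of mesenchyme and vessels, was at 14.2, 16.5 and 14.8 CPM in the controls, at 19.2, 17.7 and 19.3 CPM in Gata4 KD and at 19.9, 17.5 and 20.035 CPM in Tbx20 KD. Its pooled log2 fold change was 0.32 ± 0.08 (SE, unadjusted p = 0.00176). The groups were separated by about 1 CPM. Id2, a repressor that binds helix-loop-helix factors, was at 64.3, 83.7 and 76.3 CPM in the controls and between 87.4 and 99.3 CPM in the knockdown samples. The controls of Id2 were thus more spread than the 6 knockdown samples.

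Hgf, hepatocyte growth factor, a ligand secreted by fibroblasts that signals through the receptor Met, was at 19.5, 22.4 and 18.1 CPM in the controls. It was at 68.2, 59.4 and 71.2 CPM in Gata4 KD and at 26.2, 29.999 and 30.2 CPM in Tbx20 KD. Both groups lay above control without overlap, but they did not overlap each other either. The log2 fold change was 1.73 in Gata4 KD and 0.52 in Tbx20 KD, and their difference was 1.203 (95% interval 0.97 to 1.43, adjusted p = 0.00041). Hgf was the only 1 of the 261 separated genes whose difference between the knockdowns passed.

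The other named genes higher in all 6 samples had pooled log2 fold changes between 0.21 and 0.36. Stk40, a kinase-like protein, went from 29.5 to 31.8 CPM in the controls to 39.8 to 43.0 CPM in Gata4 KD and 33.3 to 38.2 CPM in Tbx20 KD. Disp1, which releases lipid-modified hedgehog ligands from the cells that make them, was at 44.9 to 54.5 CPM in the controls and 58.5 to 62.3 CPM in the knockdown samples. Sppl3, an intramembrane protease of the Golgi, was at 47.3 to 53.5 CPM in the controls against 55.9 to 66.8 CPM. Rbm15b, a partner of the RNA methylation complex, Mtus2, a microtubule-associated protein, Fastkd1, a regulator of mitochondrial RNA, and Zadh2, an oxidoreductase, gave 0.30, 0.36, 0.32 and 0.21. None of these passed an adjusted p of 0.05.

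**Figure D3:**
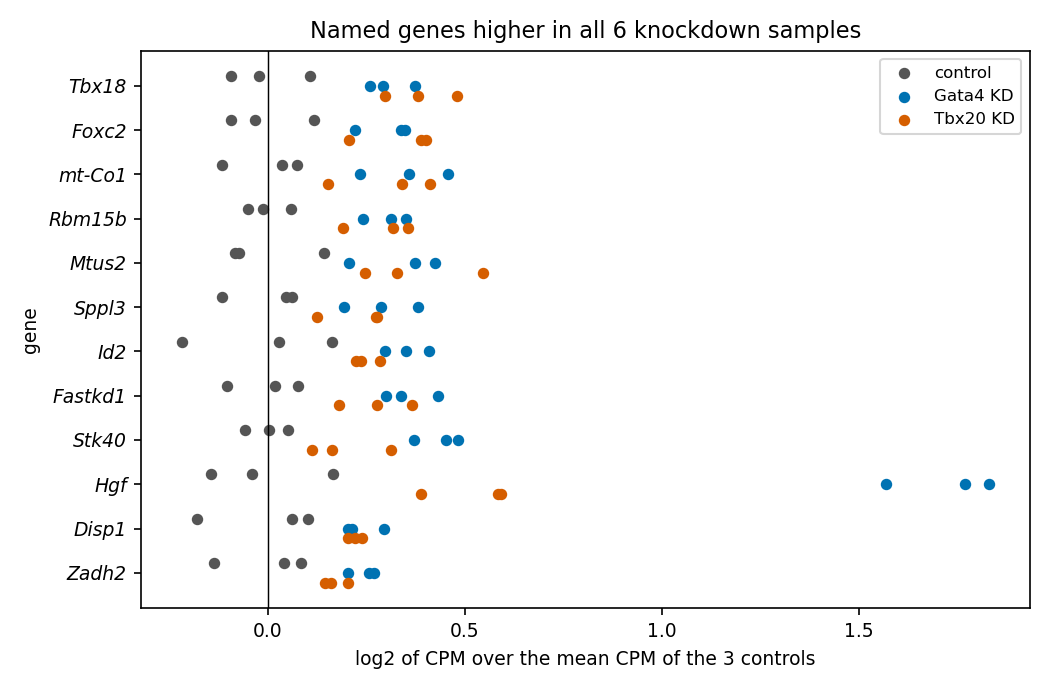
The 12 named genes that were higher in all 6 knockdown samples, with the log2 of each sample's CPM over the control mean on the x axis and 1 row per gene. Points are samples, coloured by group; the knockdown points lie just right of the controls for most genes, while for Hgf, Stk40 and Id2 all Gata4 KD points lie right of all Tbx20 KD points, for Hgf by the widest margin.

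Among the named genes lower in all 6 knockdown samples, L1cam had the smallest p. It encodes a neural cell adhesion molecule and was at 7.05, 5.12 and 6.42 CPM in the controls. It was at 3.97, 4.74 and 4.51 CPM in Gata4 KD and at 3.86, 4.14 and 3.92 CPM in Tbx20 KD. The gap between the groups was under 1 CPM, and the pooled log2 fold change was -0.57 ± 0.12 (SE, unadjusted p = 0.000745, adjusted p = 0.996).

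Cd38, an ectoenzyme that breaks down NAD, was at 18.9, 24.1 and 19.2 CPM in the controls, at 13.3, 12.9 and 14.3 CPM in Gata4 KD and at 14.9, 16.9 and 16.3 CPM in Tbx20 KD. Its pooled log2 fold change was -0.49 ± 0.11 (SE, unadjusted p = 0.00102). All 3 Tbx20 KD samples of Cd38 lay between Gata4 KD and the controls. Cd40, a receptor of the tumour necrosis factor family that also acts in fibroblasts, was at 24.7, 24.4 and 26.5 CPM in the controls and between 17.8 and 22.6 CPM in the knockdown samples. Its value was -0.34 ± 0.08 (SE, unadjusted p = 0.0012), with both knockdown groups in the same range.

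Ptk2b, a tyrosine kinase related to focal adhesion kinase, was at 49.6 to 57.4 CPM in the controls, 38.3 to 43.0 CPM in Gata4 KD and 44.9 to 47.9 CPM in Tbx20 KD. Pstpip1, an adaptor of the actin cytoskeleton, had the same order, at 19.3 to 21.5, 12.3 to 13.3 and 15.8 to 18.6 CPM. For neither gene did the difference between the knockdowns pass, with adjusted p-values of 0.287 and 0.0622. Vamp8, a SNARE protein of late endosomes, was at 53.3 to 63.5 CPM in the controls and 46.3 to 50.3 CPM in the knockdown samples.

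Epb41, a protein of the membrane skeleton, Kif21a, a kinesin motor, and Ica1, a protein of the secretory pathway, gave pooled values of -0.27, -0.33 and -0.24. Ctla2a, a cysteine protease inhibitor, Rsph3a, a component of the ciliary radial spoke, and Dynlt1a, a dynein light chain, gave -0.30, -0.34 and -0.39. The last 3 have near copies in the genome. Of the distinct 75 base windows of their annotated transcripts, the read length used, 54.9% of those of Dynlt1a, 48.8% of those of Rsph3a and 15.9% of those of Ctla2a also occur in another gene, Dynlt1c, Rsph3b and Gm49391 sharing the most. Their counts depend on how reads were divided between the copies. Of the 12 named genes higher in the knockdown samples, mt-Co1 shared 39.8% of windows, and no other shared more than 5.65%.

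**Figure D4:**
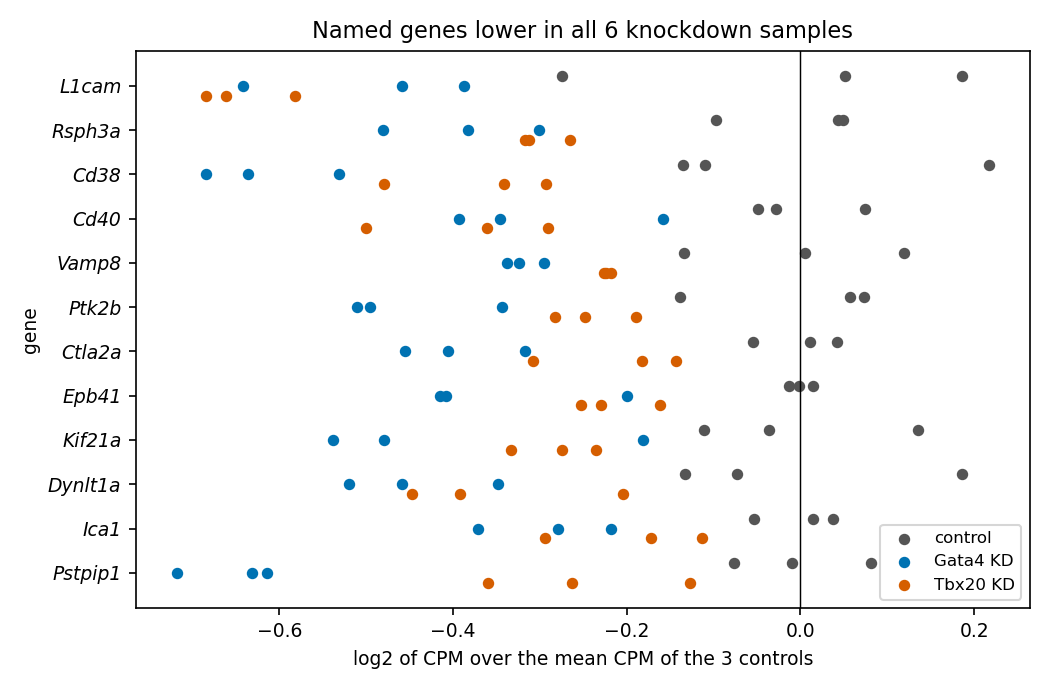
The 12 named genes that were lower in all 6 knockdown samples, plotted as the log2 of each sample's CPM over the mean of the 3 controls, with 1 row per gene and points coloured by group. All knockdown points lie left of all control points of their gene. For Cd38, Vamp8, Ptk2b, Ctla2a and Pstpip1 all Gata4 KD points lie further left than all Tbx20 KD points.

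Genes that answer a double-strand break had medians close to that of all genes. RNA was collected at a single time after transfection, so earlier responses were not measured. Of 25 p53 targets tested, 4 lay above control in both knockdowns, 11 lay below in both and 10 were on opposite sides, 0 had an unadjusted p under 0.05, and their median pooled log2 fold change was -0.03 (0.0077 without control b) beside -0.01 (-0.02) over all genes tested. Tnfrsf10b, a death receptor, was at 106, 102 and 109 CPM in the controls and between 95.6 and 106 CPM in the knockdown samples. Aen, a nuclease induced by p53, was at 182, 169 and 182 CPM against 162 to 176 CPM. Both ranges overlapped only through control b. The pooled values were -0.09 and -0.08 (unadjusted p = 0.109 and 0.158), and without control b both were -0.12. Bbc3, a pro-apoptotic protein, and Ddb2, a sensor of damaged DNA, gave -0.22 and -0.14 with p-values of 0.149 and 0.208.

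The best known targets of p53 were looked at after their values were seen. Cdkn1a, which encodes the cell cycle inhibitor p21, was at 485, 454 and 459 CPM in the controls and between 433 and 478 CPM in the knockdown samples. Mdm2, the ubiquitin ligase that degrades p53, was at 307, 334 and 340 CPM against 274 to 349 CPM. The pooled value of Cdkn1a was -0.03 with a 95% interval from -0.15 to 0.10, and that of Mdm2 was -0.09 with an interval from -0.29 to 0.12.

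Of 29 genes of double-strand break repair tested, 5 lay above and 14 below control in both knockdowns, with a median of -0.02 (-0.04 without control b), and 1 had an unadjusted p under 0.05. That gene was Parp1, which senses strand breaks, at 79.4, 70.7 and 86.3 CPM in the controls and 63.0 to 74.9 CPM in the knockdown samples, with a pooled value of -0.17 (unadjusted p = 0.0455). The ranges overlapped through control b, and without it the value was -0.24. Dclre1c, Mdc1 and Chek2, a nuclease, a scaffold at breaks and a checkpoint kinase, had p-values of 0.17, 0.212 and 0.218.

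Interferon-stimulated genes mostly split between the knockdowns. Of 41 tested, 6 lay above control in both, 2 below in both and 33 on opposite sides, with a median of 0.00037 in the pooled fit, -0.07 in Gata4 KD and 0.08 in Tbx20 KD (pooled 0.03 without control b), and 0 had an unadjusted p under 0.05. Iigp1, an interferon-induced GTPase, was at 519, 766 and 498 CPM in the controls and 583 to 722 CPM in the knockdown samples. Control b was above all 6 knockdown samples and the other controls were below them, so that the pooled value of 0.16 became 0.39 without control b (adjusted p = 0.0893).

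Genes of the cell cycle lay mostly below control. Of 25 S-phase genes tested, 0 lay above and 22 below control in both knockdowns, with a median of -0.10, and 0 had an unadjusted p under 0.05. Pcna, the sliding clamp of DNA replication, was at 173, 152 and 189 CPM in the controls, at 162, 157 and 124 CPM in Gata4 KD and at 178, 154 and 152 CPM in Tbx20 KD. Summed over the list, the level was 2094, 1869 and 2178 CPM in the controls and ranged from 1571 to 2177 CPM in the knockdown samples. The ranges overlapped and Gata4 KD c was the lowest sample. Without that sample the median was -0.02 and without control b it was -0.19. Mcm7 of the replicative helicase, Gins2 of the same machinery and Ccne1, cyclin E1, gave pooled values of -0.13, -0.23 and -0.18 with p-values between 0.155 and 0.178. Mcm7 and Ccne1 overlapped only through control b, and without it they gave -0.20 and -0.29.

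Of 25 G2/M genes tested, 2 lay above and 16 below control in both knockdowns, with a median of -0.07 (-0.11 without control b), and 0 had an unadjusted p under 0.05. Bub1b, a kinase of the spindle checkpoint, had the smallest p of the list (0.134) at a pooled value of -0.13. Leaving out Gata4 KD c brought the median to 0.01.

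The genes encoded in the mitochondrial genome were looked at after mt-Co1 had come up among the named genes. mt-Co1, a subunit of cytochrome c oxidase, was at 3324, 3236 and 2913 CPM in the controls, at 4046, 3715 and 4337 CPM in Gata4 KD and at 4204, 3999 and 3511 CPM in Tbx20 KD. All 6 knockdown samples lay above the controls, by 0.33 ± 0.08 (SE, unadjusted p = 0.00207, adjusted p = 0.996). Of the 13 mitochondrially encoded protein genes, 12 lay above control in both knockdowns, 9 had an unadjusted p under 0.05 and 1, mt-Co1, was without overlap, with a median of 0.32 (0.45 without control b). mt-Nd1 of complex I, mt-Cytb of complex III and mt-Co3 of complex IV gave 0.35, 0.30 and 0.34. mt-Nd1 and mt-Co3 overlapped only through control b, and without it they gave 0.50 and 0.45.

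Their summed level was 8654, 9693 and 7533 CPM in the controls, 10899, 10578 and 11392 CPM in Gata4 KD and 11508, 10922 and 9204 CPM in Tbx20 KD. Only Tbx20 KD c, below control b, kept the groups from separating. The share of counts from all mitochondrially encoded genes was 0.806 to 1.01% in the controls, 1.12 to 1.19% in Gata4 KD and 0.969 to 1.21% in Tbx20 KD. These genes share a single small genome, and their levels are not independent of each other.

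Among regulators of the heart, 27 of 31 cardiac transcription factors were tested, 12 lay above and 3 below control in both knockdowns, with a median of 0.05 (0.13 without control b), and 2, Tbx18 and Foxc2, were without overlap. Foxc1, a relative of Foxc2, was at 12.5, 18.9 and 11.2 CPM in the controls and between 16.9 and 19.3 CPM in the knockdown samples, at 0.34 ± 0.14 (SE, unadjusted p = 0.0365). Control b of Foxc1 lay among the knockdown samples, and without it Foxc1 passed the pooled test at 0.60 (adjusted p = 0.0457). Of 36 genes tested from the study's list of genes enriched in heart fibroblasts, 2 lay above and 11 below control in both knockdowns, with a median of -0.04. That median was 0.12 without control b, and 0.04 and 0.05 without Gata4 KD a and b. Pnp2, a purine phosphorylase of that list, was at 35.0, 27.4 and 42.5 CPM in the controls and 26.3 to 30.3 CPM in the knockdown samples (pooled -0.33, unadjusted p = 0.0142). Control b of Pnp2 lay among the knockdown samples, and the value was -0.48 without it. Rhox5, a homeobox gene of the same list, gave -0.16 (unadjusted p = 0.0681). It overlapped only through control b and gave -0.18 without that sample.

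Fibroblast activation was described by 3 lists. Of 17 contractile genes of the myofibroblast tested, 4 lay above and 3 below control in both knockdowns, with a median of -0.01 (-0.08 without control b). Itga11, a collagen-binding integrin, was at 6.50, 6.55 and 5.27 CPM in the controls and 5.89 to 12.01 CPM in the knockdown samples, at 0.56 ± 0.23 (SE, unadjusted p = 0.0329). Its ranges overlapped. Synpo2, an actin-bundling protein, and Vcl, vinculin of focal adhesions, gave 0.23 and 0.09 (unadjusted p = 0.153 and 0.171). Of 29 matrix genes tested, 4 lay above and 10 below in both, with a median of -0.09 (-0.05 without control b). Loxl2, an enzyme that crosslinks collagen, was at 643, 603 and 523 CPM in the controls, at 389, 320 and 493 CPM in Gata4 KD and at 460, 521 and 571 CPM in Tbx20 KD. Its pooled value was -0.36 (unadjusted p = 0.0404), and Tbx20 KD c overlapped the controls. Col11a1 and Col6a3, chains of types XI and VI collagen, gave -0.20 (-0.10 without control b) and -0.24 with unadjusted p-values of 0.0402 and 0.0495. Col5a1, a chain of type V collagen, gave -0.15 (unadjusted p = 0.152). Of 17 metalloproteinase and inhibitor genes tested, 7 lay above and 1 below in both, with a median of 0.07 (0.09 without control b). Mmp11, Mmp12 and Mmp8, secreted proteases of the extracellular space, gave 0.20, 0.20 and 0.65 (unadjusted p = 0.0951, 0.169 and 0.123), Mmp8 from levels between 0.468 and 1.79 CPM.

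Secreted signals and stress responses were described by further lists. Of 17 cytokine and chemokine genes tested, 7 lay above and 1 below in both knockdowns, and 3 had an unadjusted p under 0.05. Their pooled median was 0.15, which was 0.29 without control b and 0.05 without control c. By knockdown, the median was 0.17 in Gata4 KD and -0.0029 in Tbx20 KD. Cxcl12, a chemokine of mesenchymal cells, was at 359, 408 and 363 CPM in the controls, at 488, 468 and 458 CPM in Gata4 KD and at 413, 379 and 421 CPM in Tbx20 KD, for a pooled value of 0.22. Il6, an inflammatory cytokine, was at 87.8, 111 and 77.5 CPM in the controls, 133 to 136 CPM in Gata4 KD and 90.7 to 109 CPM in Tbx20 KD, for 0.35. For both genes the Gata4 KD samples were the highest and the Tbx20 KD samples overlapped the controls only through control b. Without control b the pooled values were 0.28 for Cxcl12 and 0.51 for Il6. Ccl2, which attracts monocytes, was at 289, 282 and 286 CPM in the controls against 233 to 289 CPM, for -0.17.

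Of 22 genes of the unfolded protein and amino acid stress responses, 2 lay above and 9 below control in both, with a median of -0.03 (-0.06 without control b), and Atf3 and Mthfd2, a stress-induced transcription factor and a mitochondrial folate enzyme, gave -0.35 and -0.23 (unadjusted p = 0.0353 and 0.0362). Manf, a protein of the endoplasmic reticulum, and Chac1, a glutathione-degrading enzyme, gave -0.09 and -0.17 (unadjusted p = 0.204 and 0.215). Chac1 overlapped only through control b and gave -0.26 without it. Of 10 heat shock genes 4 lay above and 3 below, of 14 immediate early genes 1 above and 3 below, and of 20 TGF-beta pathway genes 5 above and 4 below. Of 20 cholesterol synthesis genes 1 lay above and 7 below, and of 18 hypoxia and glycolysis genes 2 above and 8 below. None of these 5 lists had a member with an unadjusted p under 0.05, and their medians lay between -0.08 and 0.02. Without control b the immediate early median went from -0.05 to 0.18, and the others were 0.02, 0.04, -0.13 and -0.11 in the order heat shock, TGF-beta, cholesterol, and hypoxia and glycolysis.

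Their members with the smallest p overlapped between the groups, some of them only through control b. The chaperones Hspe1 and Hspa8 gave -0.13 and -0.10 (unadjusted p = 0.14 and 0.177). The transcription factors Jun, Myc and Fosb gave -0.17, -0.15 and -0.35 (unadjusted p = 0.0998, 0.121 and 0.144), and Jun was at -0.03 without control b. Tgfbr2, a TGF-beta receptor, and Smad4, which carries its signal to the nucleus, gave 0.18 and 0.08 (unadjusted p = 0.13 and 0.248). Pmvk and Insig1, a kinase and a feedback regulator of sterol synthesis, gave -0.15 and 0.11 (unadjusted p = 0.127 and 0.2). Bnip3, a mitophagy receptor induced by hypoxia, gave 0.18 (unadjusted p = 0.094), while Pfkp and Pfkl, phosphofructokinases of glycolysis, gave -0.14 and -0.12 (unadjusted p = 0.104 and 0.127). Hspe1, Hspa8, Smad4, Pmvk, Bnip3, Pfkp and Pfkl overlapped through control b alone. Without it they gave -0.20, -0.17, 0.17, -0.21, 0.30, -0.21 and -0.21 in that order.

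**Figure D5:**
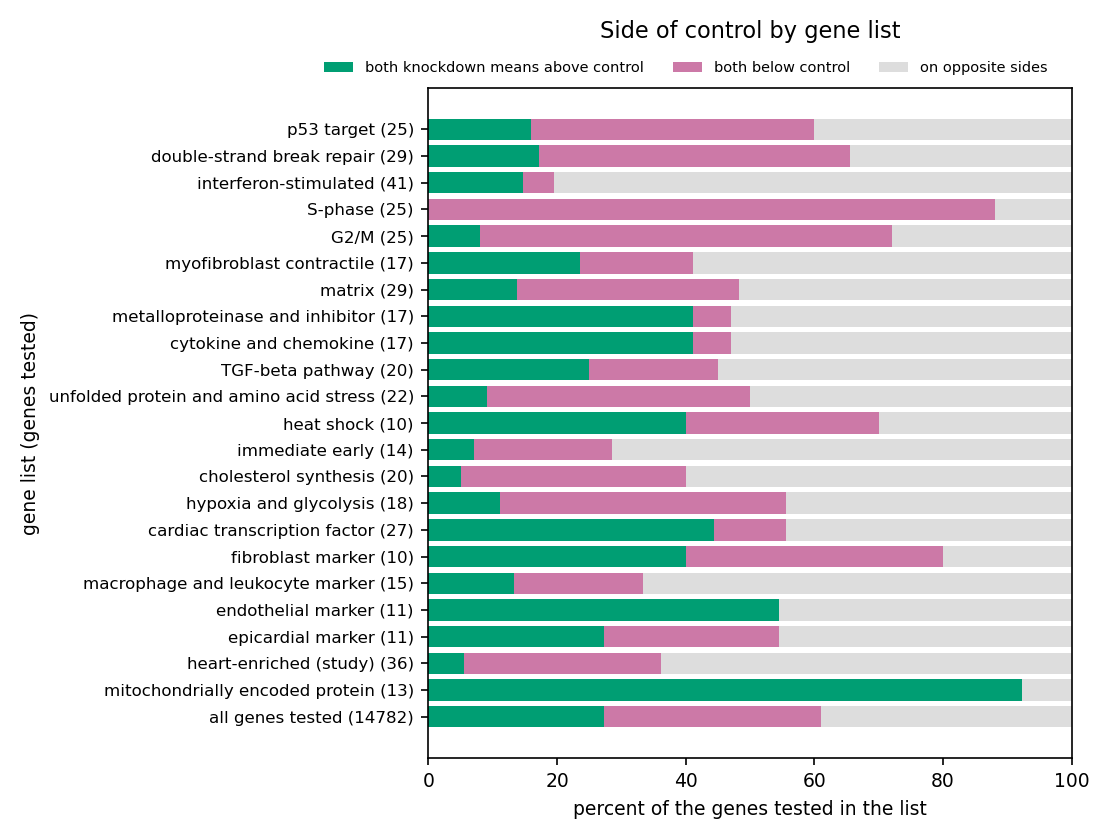
Share of the genes tested in each list whose knockdown means lay both above control (green), both below (purple) or on opposite sides (grey), on an axis from 0 to 100%, for lists with at least 10 genes tested and, in the last bar, for all 14782 genes. S-phase genes (22 of 25 below) and mitochondrially encoded genes (12 of 13 above) differ most from the bar of all genes, and interferon-stimulated genes are mostly on opposite sides (33 of 41).

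The summed levels of the markers of most other cell types overlapped between groups. In bulk RNA, fewer cells of a type and less RNA per cell cannot be told apart. The summed level of 15 macrophage and leukocyte markers was 58.9 to 67.6 CPM in the controls, 33.7 to 59.8 CPM in Gata4 KD and 54.8 to 85.3 CPM in Tbx20 KD. Csf1r, the receptor for the macrophage growth factor CSF1, gave -0.42 (unadjusted p = 0.0326) and was the only 1 of 15 tested with an unadjusted p under 0.05. Their median was -0.05 (-0.03 without control b), and Cd14, a receptor for lipopolysaccharide, gave 0.26 (unadjusted p = 0.177). Of the 12 endothelial markers, 11 were tested and 6 lay above control in both, with sums of 47.4 to 67.1, 48.4 to 67.7 and 51.2 to 64.8 CPM in the same order of groups and a median of 0.16 (0.20 without control b). Kdr, Pecam1 and Erg, the VEGF receptor, CD31 and a transcription factor, gave 0.59, 0.41 and 0.80 (unadjusted p = 0.0637, 0.152 and 0.123). The levels of Erg lay below 1 CPM in every sample. The 4 pericyte markers tested of 6 gave 1 above and 0 below, with a median of 0.03 (-0.05 without control b), and the summed level of the 6 was 84.0 to 91.7, 74.6 to 94.7 and 82.8 to 91.2 CPM. Rgs5, a G protein regulator of pericytes, was at 1.90 to 3.41 CPM in the controls, 4.02 to 6.34 CPM in Gata4 KD and 2.602 to 3.55 CPM in Tbx20 KD (0.61, unadjusted p = 0.0568). The 2 Schwann markers tested of 4 lay below in both (median -0.39, and -0.55 without control b), S100b at -0.60 (unadjusted p = 0.0292) from levels near 1 CPM. Csf1r, Erg, Rgs5 and S100b overlapped only through control b. Without it they gave -0.54, 1.63, 0.84 and -0.78 in that order.

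Of 16 cardiomyocyte markers, 5 passed the filter on low counts and 3 had no count in any sample. Of the 5 tested, 0 lay above and 4 below control in both knockdowns, with a median of -0.50 (-0.64 without control b and -0.13 without control c). The median of -0.50 was the value of Nppb, at 0.112 to 0.723 CPM over all samples (unadjusted p = 0.375). The summed level of the list was 30.3 to 37.9 CPM in the controls, 13.1 to 15.1 CPM in Gata4 KD and 27.0 to 32.6 CPM in Tbx20 KD. Tnnc1, the calcium-binding troponin of heart and slow muscle, was at 3.18, 2.94 and 3.92 CPM in the controls, at 2.46, 1.98 and 2.10 CPM in Gata4 KD and at 2.55, 2.38 and 2.16 CPM in Tbx20 KD. All 6 knockdown samples lay below the controls, at -0.56 ± 0.14 (SE, unadjusted p = 0.0023). Tnnt2, cardiac troponin T, was at 23.3 to 30.2 CPM in the controls, 7.65 to 8.88 CPM in Gata4 KD and 21.0 to 25.3 CPM in Tbx20 KD, and its pooled value was -0.74. Most of the summed level of the list came from Tnnt2, whose log2 fold change was -1.63 in Gata4 KD and -0.19 in Tbx20 KD. Myl4, an atrial myosin light chain, gave -0.26 (unadjusted p = 0.222). Tnni1, the slow skeletal troponin I, belongs to no list and was picked out after its values were seen, since it had the smallest p of all genes. It was at 0.408, 0.28 and 0.362 CPM in the controls and 0.0275 to 0.0992 CPM in the knockdown samples, at -2.29 ± 0.37 (SE, unadjusted p = 6.86e-05), and edgeR's exact test called it (adjusted p = 0.0111).

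Of 15 epicardial markers, 14 were matched and 11 tested, of which 3 lay above and 3 below control in both knockdowns, with a median of -0.22 (-0.27 without control b). Their summed level was 402 to 474 CPM in the controls, 313 to 430 CPM in Gata4 KD and 439 to 497 CPM in Tbx20 KD. Aldh1a2, which makes retinoic acid, was at 66.6, 77.6 and 55.6 CPM in the controls, at 110, 78.8 and 148 CPM in Gata4 KD and at 55.5, 93.0 and 74.2 CPM in Tbx20 KD (0.48, unadjusted p = 0.0854). Bnc1, a zinc finger protein of the mesothelium, was above the controls in all 6 knockdown samples at levels near 1 CPM (0.70, unadjusted p = 0.0211). Upk1b and Krt18, a uroplakin and a keratin of the mesothelium, gave -0.94 and -0.55 (unadjusted p = 0.00572 and 0.039). Both overlapped only through control b and gave -1.17 and -0.73 without it. Among 10 fibroblast markers, 4 lay above and 4 below, and S100a4, a calcium-binding protein, was at 702, 545 and 791 CPM in the controls against 491 to 577 CPM in the knockdown samples (-0.31, unadjusted p = 0.0107). Control b of S100a4 lay within the knockdown range, and the value was -0.45 without it. Col1a1 and Pdgfra, a receptor for platelet-derived growth factor, gave -0.18 and 0.20 (unadjusted p = 0.186 and 0.208). The median of the fibroblast markers was -0.05 (0.05 without control b). The summed level of the fibroblast markers was 8896 to 9176 CPM in the controls, 7139 to 8598 CPM in Gata4 KD and 8498 to 9448 CPM in Tbx20 KD.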

How the data were processed

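Gene expression was measured in 9 RNA-seq libraries, grouped by the guide RNA in the labels. The authors trimmed reads by quality and used Bowtie2 and RSEM against GRCm38, while the labels list mm9, so the build behind the counts is uncertain. The deposited values are expected counts per gene, which RSEM divides among genes that share reads; they were rounded to whole numbers here. Of 38924 IDs 37607 (96.6%) had a symbol in GENCODE, and those without one held 0.262% of counts.

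Genes were kept by filterByExpr with the samples' groups, scaled by TMM factors and tested in R 4.3.3 with edgeR 4.0.16 (glmQLFit, glmQLFTest), knockdown against control as 2 groups without covariates, with Benjamini-Hochberg adjustment over 14782 genes and a threshold of 0.05. A second fit of 3 groups gave each knockdown, their difference and the larger p of both. Sides and overlaps were counted on CPM, with a prior count of 2 on the log2 scale for the means. Intervals are 95% and use each gene's standard error. The spread between samples of a group exceeded counting error in every pair. The procedure was tested on simulated counts.

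The comparison, the gene lists and the rule for names were chosen with earlier results of these data known, and the mitochondrial list was added after its genes were seen. Named were the targets, up to 12 genes per direction without overlap between groups, at 5 CPM or more in the higher group, not predicted or clone symbols, past the threshold or else by unadjusted p, and up to 4 members of each list by smallest p, of which those with a p under 0.25 are described. The study's heart-enriched list came from its supplement, with 40 of 42 genes matched. Guide sequences came from the same source and were matched to transcripts with Python 3.11.15. Alternatives were DESeq2 1.42.0, limma-voom (limma 3.58.1), edgeR's exact test, an average of both knockdown contrasts, other scalings and filters, the replicate letter as a block, and leaving out each replicate.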

Additional observations from a re-analysis of the deposited data

Results flagged for a closer look

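Among the targets, the genes named by rule and the described list members of smallest p, 9 differed between the knockdowns themselves. The test was edgeR's quasi-likelihood test of Gata4 KD minus Tbx20 KD, adjusted over all genes. For those 9 a pooled value does not stand for both groups. Dio2, Cyp26b1 and Lrrn4, mentioned further below, were not among the genes counted. Gata4, the target of one group, differed by -1.77 on the log2 scale (95% interval -2.02 to -1.52). Hgf, which was above control in both, differed by 1.203 (0.97 to 1.43).

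Mmp13, interstitial collagenase, differed by -2.29 (adjusted p = 0.000257), being at 4.14 to 5.47 CPM in the controls, 3.08 to 4.88 CPM in Gata4 KD and 17.5 to 18.6 CPM in Tbx20 KD. Its pooled log2 fold change of 1.19 had an unadjusted p of 0.0846. Tnnt2 differed by -1.44 (adjusted p = 0.000508) and Itga4, an integrin that binds fibronectin and VCAM1, by -0.74 (adjusted p = 0.0144), both lowest in Gata4 KD. Cxcl5, a neutrophil chemokine, differed by 1.34 (adjusted p = 0.00833) and was at 54.5 to 85.1 CPM in Gata4 KD against 26.0 to 29.1 CPM in Tbx20 KD and 23.7 to 38.9 CPM in the controls. Egln3, an oxygen-sensing hydroxylase, differed by 1.28 (adjusted p = 0.0283), Kdr, the VEGF receptor, by 0.90 (adjusted p = 0.0313) and Fosl2, an AP-1 subunit, by 0.51 (adjusted p = 0.0134), all highest in Gata4 KD.

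Upk1b held 1 sample far from the others of its group. Tbx20 KD a was at 2.79 CPM and the other 5 knockdown samples at 1.33 to 1.74 CPM, a gap of 0.721 of the group's range. Such a gap arises by chance in about 1 in 20 groups, and 101 genes were examined.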

How the results depend on the processing

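The pooled count of 0 genes was also 0 with library size alone, without a filter on low counts, with at least 10 counts in every library and with limma-voom. It was 2 with DESeq2 (Tbx18 and the predicted gene Gm10273), 1 with edgeR's exact test (Tnni1) and 5 with an average of the knockdown contrasts in a fit of 3 groups. The last were Hgf, Dio2, Cyp26b1, Tnnt2 and Lrrn4, and in that fit Dio2 was at 3.72 in Gata4 KD and 0.26 in Tbx20 KD, Cyp26b1 at 1.40 and 0.19, and Lrrn4 at -3.38 and 0.03, so the average was carried by Gata4 KD. Leaving out each replicate in turn gave 0 to 11 genes, and the 11, 6 of them with predicted symbols, came without control b. They included Foxc1, Btg1, Lrch2, Alpk2 and Churc1. The count for both knockdowns was 0 in every alternative run.

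With the replicate block, that is the letter as a block, the pooled count was 0 (489 genes at an unadjusted p under 0.05) and the count for both was 0 (116). Deviations of same-letter samples from their group means correlated at -0.17 to 0.25, with 3 of 9 pairs over 0.1, so the letters were not treated as pairs.

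Genes on the same side of control numbered 13868 without a filter, since more genes were then counted. Those without overlap ranged from 304 to 3198 with each replicate left out, the highest without control b, and were 443 without Tbx20 KD a. The pooled value of Thy1, -0.14, became 0.0012 without control a and -0.24 without control b, that of Cdkn1a, -0.026, became 0.018 and -0.044 in the same order, and no other gene examined under the alternatives changed direction. The medians of 14 lists, those of p53 targets, double-strand break repair and G2/M genes among them, changed sign in some alternative, and those of 11 did not, among them S-phase genes (-0.19 to -0.02) and mitochondrially encoded genes (0.21 to 0.45). With 3 controls, and 1 of them apart, the 95% interval of the median gene reached 0.24 on the log2 scale to either side of its estimate.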
